A study of Mus musculus with 17 samples.

Results

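Il6, Il1a, Il1b and Tnf, which encode inflammatory cytokines, were followed in mouse brain after ischemia and reperfusion together with the receptor gene Osmr, the transcription factor gene Stat3 and the feedback inhibitor genes Socs3, Socs1 and Cish. Members were the probe sets whose symbol in the platform annotation was one of 10 named genes. The matching used no measured value, but the 10 genes were chosen with earlier results of these data known. Of the 10 genes, 9 were found, with 11 of the 12488 probe sets of the array; the genes on the whole array numbered 8252 by symbol. Stat3 and Socs3 had 2 probe sets each. The remaining name, Lif, matched no probe set in the annotation used and is not analysed here. Of the 11 probe sets, 9 (of 7 genes) passed the filter on low values and were tested; those of Il1b and Tnf did not pass it.

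The arrays carried RNA from brain tissue, grey and white matter, supplied by the middle cerebral artery. Single treated brains (5 arrays, 1 brain each) and treated ischemic pools (3 arrays, 6 brains each) had 1 h of ischemia, AEOL 10150 given intravenously, and 6 h of reperfusion. Ischemic pools (3 arrays, 6 brains each) had the same ischemia and reperfusion without a drug being named. Drug control pools (3 arrays, 6 brains each) were taken 6 h after AEOL 10150 and control pools (3 arrays, 6 brains each) 6 h after saline, with no ischemia named for either. AEOL 10150 is a catalytic antioxidant, a small molecule that removes reactive oxygen species. The labels used here give no strain, sex, age, genotype or dose. Whether the ischemic pools received saline is not stated, and a sham operation is not named for the controls. The measured tissue is a mixture of cell types, and a pool averages its animals, so differences between single animals within a pool cannot be seen.

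Inflammatory cytokines of the IL-1 and TNF families signal through receptors that switch on NF-kB, a transcription factor complex that in turn raises transcription of further cytokines, Il6 among them. IL-6 and oncostatin M bind receptors that contain gp130 and activate JAK kinases, which phosphorylate the transcription factor STAT3. STAT3 is switched by phosphorylation, so its mRNA is not a measure of its activity. Active STAT proteins raise transcription of the suppressor of cytokine signalling (SOCS) genes, whose products bind the receptors or the JAK kinases and close the loop. In brain, microglia, astrocytes, endothelium and blood cells that enter after an injury can all make these cytokines.

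Intensities were scaled to 1 trimmed mean per array, and 25% of all scaled values of the pools lay under 109.5, which was used as the floor (6.77 on the log2 scale). A value at or below the floor has no order among other such values. Before this step the deposited values of 7 arrays (the 5 single brains and 2 treated ischemic pools, numbers 2 and 3) were on another scale, with trimmed means from 129 to 210 in place of 2500. Titles and descriptions differ for 2 arrays: the text for drug control pool 1 names saline, and the text for treated ischemic pool 1 names no drug. Titles were used for the groups. Single brains are numbered as in their descriptions, and brain 11 carries another number in its title. The ratio of the actin probe sets at the 3' and 5' ends, a measure of RNA integrity in which 1 is even, ranged from 1.15 to 2.14 over the arrays. All 8 neuron markers were above the floor on all 17 arrays, as were all 6 astrocyte markers. Arrays carry no read depth, and their number limits the precision.

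Of the 4 cytokine genes measured, Il6 and Il1a gave a signal above the floor and Il1b and Tnf gave none. Il6 encodes interleukin 6, a ligand of the gp130 receptors. In the ischemic pools its scaled intensity was 962, 589 and 229, against 57.9, 50.4 and 99.8 in the control pools. All 3 ischemic pools lay above all 3 control pools, and no control pool reached the floor. The difference was 2.21 ± 0.52 on the log2 scale (SE, n = 3 pools each), or 4.63-fold with the control pools set to the floor. That difference had a 95% interval from 1.06 to 3.36. It did not pass the adjustment over 10259 probe sets (limma, adjusted p = 0.322). In mixed tissue, a change in the number of cells of a type and a change in RNA per cell cannot be told apart. The ischemic pools had actin ratios of 1.70, 1.53 and 1.17, in the same order as their Il6 values, and the part of this in the Il6 values was not tested.

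With the drug in both arms, Il6 was 337, 306 and 92.1 in the treated ischemic pools, against -88.0, -62.6 and -24.5 in the drug control pools. Treated ischemic pools 1 and 2 were above the floor and pool 3 was not, so the groups overlapped at the floor. The difference was 1.03 ± 0.52 (log2, SE, limma adjusted p = 1). Over both arms together, 6 ischemic against 6 non-ischemic pools, the Il6 difference was 1.62 ± 0.37 (log2, SE, limma adjusted p = 0.166), with 5 of 6 ischemic pools and 0 of 6 non-ischemic pools above the floor. It passed with the floor at the 20th percentile (adjusted p = 0.0280) and without ischemic pool 3 (0.0332). At the main floor Il6 entered the tests only through ischemic arrays, and both non-ischemic groups had an SD of 0. That narrows the SE and lowers the p-values, which are therefore no support on their own. In the 5 single treated brains Il6 was 143, 176, -114, 246 and -67.8, so brains 11, 12 and 14 were above the floor and brains 13 and 16 were not.

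Il1a encodes interleukin 1 alpha, a ligand that acts through the IL-1 receptor. Its intensity was 527, 525 and 833 in the ischemic pools, against 99.5, 67.9 and 292 in the control pools. It was 609, 355 and 608 in the treated ischemic pools, against 252, 1.90 and 135 in the drug control pools. No ischemic pool overlapped the non-ischemic pools, 3 of 6 of which were at the floor. The difference was 2.01 ± 0.45 without the drug and 1.72 ± 0.45 with it (log2, SE, limma adjusted p = 0.251 and 0.591). Averaged over both arms it was 1.86 ± 0.32, or 3.64-fold, and passed the threshold (limma adjusted p = 0.0356). The call was lost without control pool 1 (adjusted p = 0.112), control pool 2 (0.109), drug control pool 2 (0.1004) or 3 (0.117), any 1 of the ischemic pools (0.0914 to 0.0934) or any 1 of the treated ischemic pools (0.0520 to 0.117). It was also lost with no filter (0.0726), a robust fit with a variance trend (0.0601), without the 2 arrays with unlike labels (0.0871) and with the deposited scale as a block (0.168). With the floor at the 20th percentile, 36.4, the difference was 2.27 (adjusted p = 0.180), and at the 40th, 458.4, it was 0.35 (0.815).

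Il1b, which encodes interleukin 1 beta, was below the floor on all 17 arrays, and its highest scaled intensity was 0.500, in ischemic pool 1. Tnf, which encodes tumour necrosis factor, was below the floor on all 17 arrays as well, with intensities from -1591 to -269. Negative intensities arise where a subtracted background or mismatch signal exceeds the signal of the probe set. No statement on ischemia or the drug can be made for these 2 genes from this array, and whether their mRNA was low or their probe sets performed poorly was not tested.

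**Figure D1:**
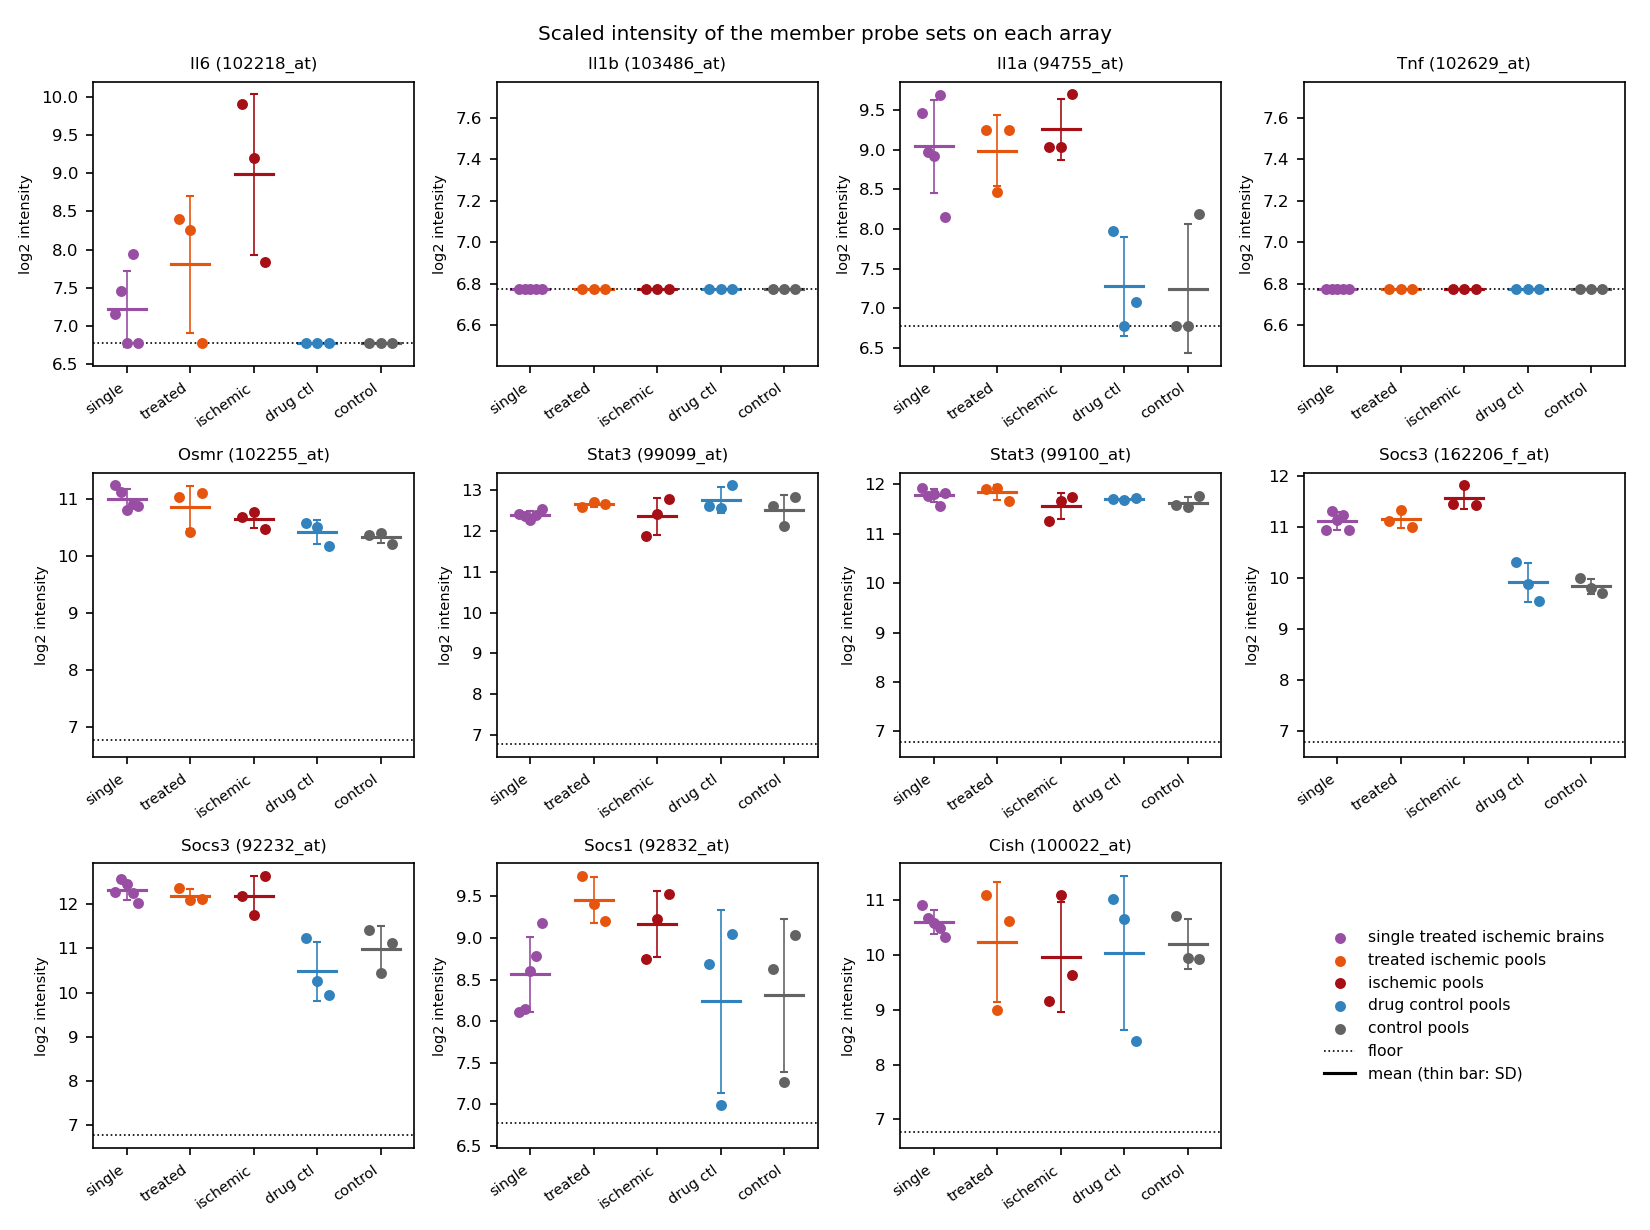
Scaled intensity on the log2 scale (vertical axis) of each of the 11 member probe sets in the single treated brains, treated ischemic pools, ischemic pools, drug control pools and control pools. Each point is 1 array, the thick line is the group mean, the thin bar is the SD and the dotted line is the floor of 6.77; both Socs3 panels show all 11 ischemic arrays above the 6 others, while Il1b and Tnf lie on the floor throughout.

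The Il6 promoter is shown because NF-kB is known to act on this gene and its signal was above the floor on 8 of 11 ischemic arrays and 0 of 6 non-ischemic arrays. The sequence runs from 250 bases before to 30 bases after the RefSeq transcription start (GRCm38.p6, chr5:30012864-30013143, plus strand), and capitals mark a stretch with 2 overlapping matches to GGGANNNTCC, the core of an NF-kB site.
Il6: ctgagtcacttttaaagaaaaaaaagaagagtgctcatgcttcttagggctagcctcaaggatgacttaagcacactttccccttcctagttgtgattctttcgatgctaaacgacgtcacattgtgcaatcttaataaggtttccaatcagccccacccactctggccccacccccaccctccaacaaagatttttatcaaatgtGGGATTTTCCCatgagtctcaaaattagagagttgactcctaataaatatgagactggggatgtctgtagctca
The first of these matches starts at base -44 relative to the transcription start and the other at base -43. Both strands were searched over 250 bases before to 50 bases after the start in 32851 RefSeq promoters, and 4.59% held at least 1 match. None of the other 9 named genes held a match in this window, Il1a and Il1b included. A match is a run of letters, not a measured binding site.

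Osmr and Stat3, which carry the signal from the receptor to the nucleus, were above the floor on all 17 arrays, and neither passed the test in any comparison. Osmr encodes the oncostatin M receptor subunit that pairs with gp130. Its intensity was 1644, 1746 and 1419 in the ischemic pools, against 1312, 1355 and 1179 in the control pools, without overlap. It was 2092, 1370 and 2187 in the treated ischemic pools, against 1518, 1450 and 1155 in the drug control pools, where treated ischemic pool 2 lay below 2 of the 3 controls. The log2 difference was 0.32 ± 0.22 without the drug and 0.43 ± 0.22 with it (SE, limma adjusted p = 1 for both). Over both arms it was 0.38 ± 0.15, with a 95% interval from 0.03 to 0.72 and limma adjusted p = 0.918.

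Stat3 had 2 probe sets. On the first the intensity was 3761, 5485 and 7034 in the ischemic pools, against 6205, 4423 and 7284 in the control pools. On the second it was 2448, 3239 and 3445 in the ischemic pools, against 3070, 2979 and 3465 in the control pools. With the drug, the first read 6119, 6716 and 6476 in the treated ischemic pools, against 6190, 6030 and 8844 in the drug control pools. The second read 3861, 3880 and 3254 in the treated ischemic pools, against 3332, 3269 and 3374 in the drug control pools. The groups overlapped on both probe sets in both arms. The log2 difference over both arms was -0.13 ± 0.20 on the first (95% interval -0.56 to 0.31) and 0.03 ± 0.13 on the second (95% interval -0.25 to 0.32, SE, limma adjusted p = 1.00 for both). Differences within these intervals are not excluded, and the intervals are not limits of detection.

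The first Socs3 probe set rose with ischemia in the pools without the drug and in the average over both arms, and both Socs3 probe sets were higher in the single brains than in the drug control pools. Socs3 encodes a protein that binds gp130 and JAK kinases and limits signalling by the IL-6 family. On the first of its 2 probe sets, whose name ends in _f_at, the intensity was 2799, 3619 and 2775 in the ischemic pools, against 1021, 890 and 835 in the control pools. The groups did not overlap, and the lowest ischemic pool was above the highest control pool. The difference was 1.74 ± 0.23 (log2, SE, n = 3 pools each), a 3.33-fold rise (limma adjusted p = 0.0155). It was the 1 member probe set of 9 that passed in this comparison, in which 0.214% of all tested probe sets passed, each of them higher in the ischemic pools. Without overlap between the groups, 5 of the 9 member probe sets were higher, those of Il6, Il1a, Osmr and Socs3, beside 4.07% of all tested probe sets. Il6 passed the filter only through ischemic pools, and Socs3 counts with both its probe sets. The genes were chosen with earlier results of these data known. This and the later member shares are therefore descriptions and no support. The call ended when any 1 of the 6 arrays was left out (adjusted p from 0.0523 to 0.0962) and with quantile normalization (0.0567). A fit that blocked on the pool number called 35 probe sets in place of 22, and Socs3 stayed past the threshold (adjusted p = 0.0123).

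The second Socs3 probe set read 4667, 3452 and 6341 in the ischemic pools, against 2744, 1385 and 2234 in the control pools. The groups did not overlap, but both spread more than on the first probe set. The difference was 1.20 ± 0.37 (log2, SE, limma adjusted p = 0.760). The annotation gives no accession for the first, whose suffix marks a probe set that may share probes with related sequences, so the 2 probe sets need not report the same transcripts. The log2 ratio of the second to the first was 0.62 ± 0.64 in the ischemic pools and 1.16 ± 0.45 in the control pools (SD, n = 3 each).

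With the drug in both arms, the first Socs3 probe set read 2232, 2578 and 2048 in the treated ischemic pools, against 1281, 940 and 752 in the drug control pools. The second read 5281, 4385 and 4484 in the treated ischemic pools, against 2411, 1230 and 980 in the drug control pools. All treated ischemic pools lay above all drug control pools on both. The differences were 1.23 ± 0.23 on the first and 1.72 ± 0.37 on the second (log2, SE, limma adjusted p = 0.159 and 0.301). No member passed in this comparison, in which 0.0877% of tested probe sets did, and 3 of 9 had an unadjusted p under 0.05, beside 3.44% of all tested probe sets. Il1a, Socs1 and both Socs3 probe sets, 4 of 9, were higher without overlap, beside 3.75% of all tested probe sets.

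Averaged over both arms, the rise on the first Socs3 probe set was 1.49 ± 0.16 (log2, SE), 2.80-fold, with limma adjusted p = 0.00252. It passed under all alternatives run for this comparison except the values as deposited. The difference on the second was 1.46 ± 0.26 and just missed the threshold (limma adjusted p = 0.0507). It passed with the floor at the 40th percentile (0.0255), with a robust fit and a variance trend (0.0290), with groups from the descriptions (0.0122), in the fit that blocked on the pool number (0.0271) and without drug control pool 1 (0.0209). Socs3 and Il1a were the members called here, 2 of 9 probe sets, beside 0.448% of all tested probe sets (0.439% higher). Those of Il1a and Socs3, 3 of 9, were higher in all 6 ischemic pools than in all 6 others, beside 0.829% of all tested probe sets. The arms were also compared directly. The response with the drug minus the response without it was -0.50 ± 0.32 on the first Socs3 probe set and 0.52 ± 0.53 on the second, of opposite sign and neither past the threshold (log2, SE, limma adjusted p = 1.00 for both).

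The separation of ischemic from non-ischemic arrays held array by array on both Socs3 probe sets. On the first the lowest of 11 ischemic arrays, single brains included, read 1959 and the highest of 6 non-ischemic arrays 1281. On the second these values were 3452 and 2744. Il6 was at the floor on 3 of the 11 ischemic arrays, treated ischemic pool 3 and single brains 13 and 16. On those 3 arrays Socs3 read 2048, 2244 and 1959 on the first probe set and 4484, 5651 and 4147 on the second. The value of 1959, in brain 16, is the lowest of the 11 ischemic arrays on the first probe set.

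**Figure D2:**
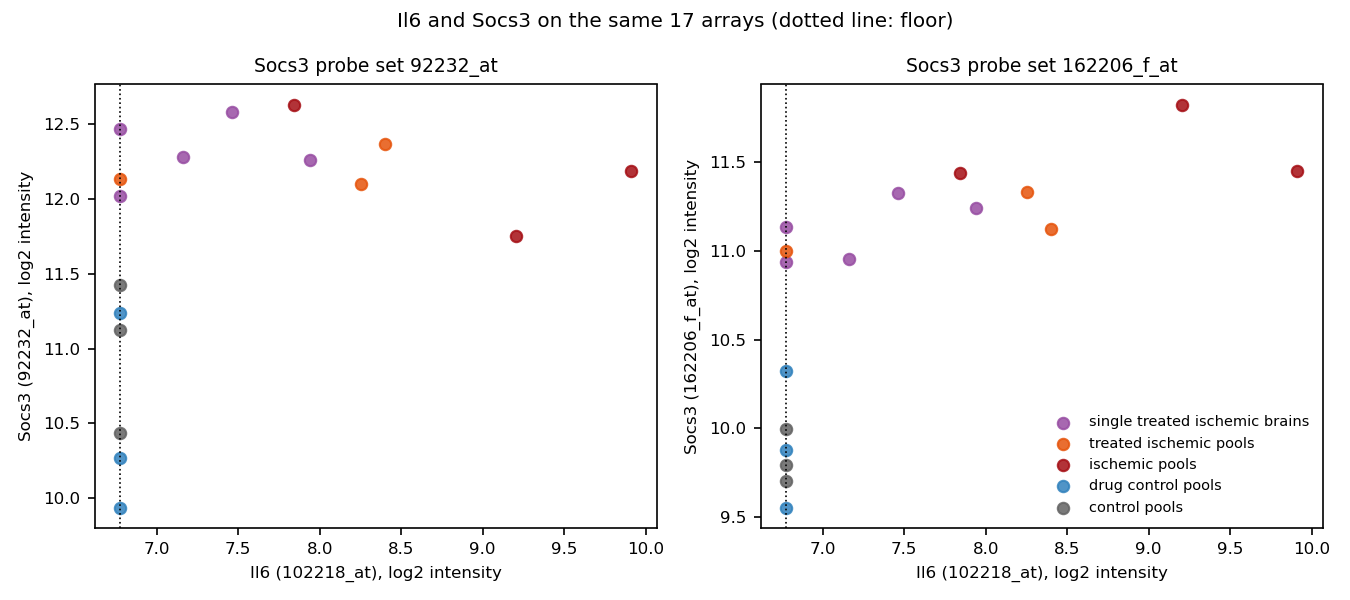
Il6 intensity (horizontal axis, log2) against Socs3 intensity (vertical axis, log2) on the same 17 arrays, with the second Socs3 probe set in the left panel and the first (name ending in _f_at) in the right panel. Each point is 1 array coloured by group and the dotted line is the floor; the 3 ischemic arrays on the Il6 floor have Socs3 above all 6 non-ischemic arrays.

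Socs1 and Cish encode 2 further inhibitors of the same family, of which SOCS1 acts mainly on interferon signalling and CISH on STAT5 signalling. Socs1 read 429, 598 and 738 in the ischemic pools, against 395, 155 and 523 in the control pools. It read 858, 680 and 588 in the treated ischemic pools, against 411, 127 and 528 in the drug control pools. The treated ischemic pools lay above all their controls and the ischemic pools overlapped theirs. Over both arms the Socs1 difference was 1.03 ± 0.40 (log2, SE, limma adjusted p = 0.816). Pool 2 of the controls and pool 2 of the drug controls were the lowest Socs1 values of the series, at 155 and 127.

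Cish varied more between pools of a group than between groups. It read 577, 2186 and 792 in the ischemic pools, against 1690, 983 and 979 in the control pools. It read 2194, 513 and 1576 in the treated ischemic pools, against 2072, 1624 and 345 in the drug control pools. The difference over both arms was -0.01 ± 0.54 (log2, SE), with a 95% interval from -1.22 to 1.19, so changes within that interval are not excluded. The single treated brains were more even, at 1939, 1643, 1541, 1450 and 1297. This was not particular to Cish: its SD among the brains was 0.22, against a median of 0.24 over all tested probe sets (log2). Over all tested probe sets the single brains correlated at 0.961 to 0.972, and pools of a group at 0.877 to 0.945.

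The promoters of Socs3 and Cish are shown together because both hold TTCNNNGAA, the core of a STAT binding site, while Socs3 passed the test and Cish did not. Each runs from 250 bases before to 30 bases after the RefSeq start (GRCm38.p6) with the matches in capitals. Socs3 lies at chr11:117969337-117969616 on the minus strand and Cish at chr9:107296409-107296688 on the plus strand.
Socs3: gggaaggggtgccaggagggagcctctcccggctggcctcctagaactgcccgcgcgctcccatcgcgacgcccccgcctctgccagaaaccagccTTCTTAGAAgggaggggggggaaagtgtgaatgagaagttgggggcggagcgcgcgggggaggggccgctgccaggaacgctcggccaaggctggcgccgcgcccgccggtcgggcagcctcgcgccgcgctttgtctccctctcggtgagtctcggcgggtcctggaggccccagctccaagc
Cish: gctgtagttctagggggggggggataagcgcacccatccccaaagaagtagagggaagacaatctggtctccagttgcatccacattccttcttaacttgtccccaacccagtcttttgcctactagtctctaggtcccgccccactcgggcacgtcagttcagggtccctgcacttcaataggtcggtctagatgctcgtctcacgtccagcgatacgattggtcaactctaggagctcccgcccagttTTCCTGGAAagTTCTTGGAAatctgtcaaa
The match in Socs3 is TTCTTAGAA, starting at base -154 relative to the transcription start. Cish has 2 matches, TTCCTGGAA from base 1 and TTCTTGGAA from base 12 after the start. Among the 32851 RefSeq promoters, each searched from 250 bases before to 50 bases after the start, 8.30% held at least 1 match on either strand. The other 8 named genes held none in that window. A match is a description of letters and says nothing of whether a STAT protein was bound.

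The effect of the drug after ischemia was compared between treated ischemic and ischemic pools. No member passed, in a comparison where 0.00975% of tested probe sets did (1 probe set, limma). Il6 read 337, 306 and 92.1 in the treated ischemic pools, against 962, 589 and 229 in the ischemic pools, a difference of -1.18 ± 0.52 (log2, SE). Its 95% interval ran from -2.33 to -0.02 and its limma adjusted p was 1 (unadjusted 0.0462). It was -0.59 with the deposited scale as a block, -0.66 without treated ischemic pool 3 and -0.71 without ischemic pool 1. On the values as deposited, with the arrays not brought to 1 scale, it was -2.53 (limma adjusted p = 0.0314). The groups overlapped, since treated ischemic pools 1 and 2 were above ischemic pool 3. On the first Socs3 probe set all 3 treated ischemic pools (2232, 2578 and 2048) lay below all 3 ischemic pools (2799, 3619 and 2775). The difference was -0.42 ± 0.23 (log2, SE, limma adjusted p = 1), and 2.11% of tested probe sets were lower without overlap in this comparison. The second differed by 0.01 ± 0.37 (95% interval -0.82 to 0.84), so the lower values were seen on 1 of the 2 probe sets. The other members differed by -0.27 (Il1a) to 0.29 (the first Stat3 probe set and Socs1) on the log2 scale.

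Without ischemia, no member passed between drug control pools and control pools, where 0.00975% of tested probe sets did (1 probe set, limma). The log2 differences of the 9 tested member probe sets ran from -0.52 ± 0.37 (the second Socs3 probe set) to 0.24 ± 0.28 (the first Stat3 probe set, SE). Il6 was at the floor in both groups, so its difference of 0 carries no information. The direct test of whether the drug changed the ischemia response called no probe set of the array (limma; 213 of 10259 probe sets had an unadjusted p under 0.05, or 2.08%). For Il6 that difference of responses was -1.18 ± 0.73 and for Il1a -0.30 ± 0.64 (log2, SE, limma adjusted p = 1.00 for both).

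**Figure D3:**
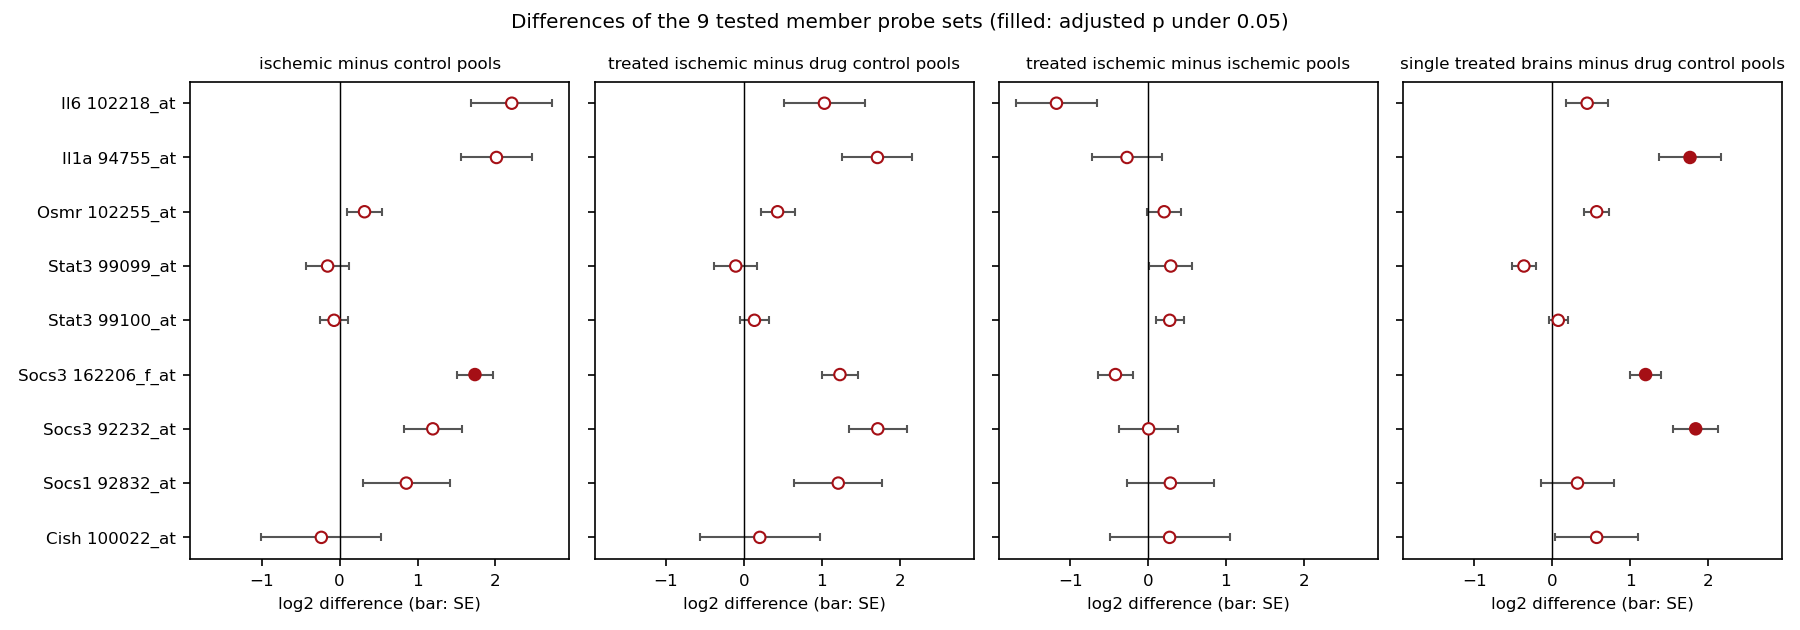
Log2 differences (horizontal axis) of the 9 tested member probe sets (rows) in 4 comparisons: ischemic minus control pools, treated ischemic minus drug control pools, treated ischemic minus ischemic pools, and single treated brains minus drug control pools. Bars are standard errors and filled points have an adjusted p under 0.05; filled points are the Socs3 probe set whose name ends in _f_at in the first panel and Il1a and both Socs3 probe sets in the last.

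The single brains show the members in single animals. They were compared with the drug control pools, the same 3 arrays that serve the treated ischemic pools, so the 2 comparisons are not independent. The single brains averaged over 1 brain and the pools over 6, and the scale of the deposited values also differed, so the number of brains and the scale cannot be told apart from ischemia here. The first Socs3 probe set read 1980, 2560, 2244, 2422 and 1959 in the single brains, against 1281, 940 and 752 in the drug control pools. The second read 4975, 6119, 5651, 4908 and 4147 in the single brains, against 2411, 1230 and 980 in the drug control pools. All 5 brains lay above all 3 pools on both. The differences were 1.20 ± 0.19 and 1.84 ± 0.29 (log2, SE), or 2.30-fold and 3.58-fold (limma adjusted p = 0.0169 and 0.0141). Both remained past the threshold when any 1 array was left out (adjusted p 0.00781 to 0.0446 and 0.00209 to 0.0416).

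Il1a in the single brains was 706, 505, 487, 825 and 285, against 252, 1.90 and 135 in the drug control pools, a difference of 1.77 ± 0.39 (log2, SE, limma adjusted p = 0.0408). The call was lost without drug control pool 2 (adjusted p = 0.0700) or 3 (0.114) and without single brains 11, 12, 13 or 14 (0.0734 to 0.0829). It was also lost with no filter (0.0655) and with the floor at the 20th (0.0828) or 40th percentile (0.293). These 3 probe sets made 3 of 9 called, in a comparison where 6.51% of tested probe sets were called and 2.91% were called higher. Osmr differed by 0.57 ± 0.16 and missed the threshold (limma adjusted p = 0.0664, or 0.0404 with the floor at the 40th percentile), at 2407, 2206, 1789, 1920 and 1877 in the brains, against 1518, 1450 and 1155 in the drug control pools. Socs1 read 276, 283, 389, 441 and 579 in the brains and overlapped the drug control pools, at 0.32 ± 0.47 (limma adjusted p = 0.689). Il1a, Osmr and both Socs3 probe sets, 4 of 9, were higher without overlap, beside 8.90% of all tested probe sets. The first Stat3 probe set was lower without overlap, beside 12.1%, at 4928 to 5885 in the brains, against 6030 to 8844 in the drug control pools (-0.36 ± 0.16, log2, SE, limma adjusted p = 0.178). Il6 differed by 0.45 ± 0.27 (limma adjusted p = 0.318).

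Against the ischemic pools, no member of the single brains passed, while 1.84% of tested probe sets did. Il6 was lower in the single brains at -1.76 ± 0.47 (log2, SE, limma adjusted p = 0.0910), and it passed without ischemic pool 3 (adjusted p = 0.0288). Single brain 14, at 246, was above ischemic pool 3, at 229, so the groups overlapped. The first Socs3 probe set was lower in all 5 brains than in all 3 ischemic pools, at -0.45 ± 0.16 (limma adjusted p = 0.153), and the second differed by 0.13 ± 0.22. The first was the 1 member probe set lower without overlap, beside 9.80% of all tested probe sets, and Osmr was the 1 higher without overlap, beside 7.21%, at 0.34 ± 0.15. The spread among the 5 brains differed between members: the SD of log2 intensity was 0.49 for Il6 and 0.59 for Il1a, against 0.17 and 0.21 for the Socs3 probe sets and 0.09 and 0.13 for the Stat3 probe sets. The median SD over 9907 probe sets was 0.24. An SD of values at the floor understates the spread of Il6.

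The rest of the pathway was described from lists of further cytokines, receptors, kinases, inhibitors and targets, in the comparison of ischemic with non-ischemic pools over both arms (limma, adjustment over 10259 probe sets). Of 21 further cytokine genes on the array, 9 were tested and none passed, and 5 were above the floor on no array. Their median log2 difference was -0.20, against 1.03 for the 9 member probe sets and 0.01 for all tested probe sets. The members were chosen with earlier results of these data known, so their higher median is no support. Socs3 and Stat3 also count there with both their probe sets, while the lists hold the brightest probe set of each gene. Il4, a type 2 cytokine, had a value of -0.88 ± 0.37, Lta, the lymphotoxin gene, 0.70 ± 0.62 and Csf1, a growth factor of macrophages, 0.23 ± 0.21. For Il4, ischemic pool 1, at 209, was the only ischemic pool above the floor. The size of the Il4 difference is therefore set in part by the floor.

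Of 18 receptor and decoy genes on the array, 16 were tested and none passed, with a median of 0.12. Il1r2, the decoy receptor of IL-1, had the smallest p of this list, at 0.89 ± 0.33 (log2, SE, limma adjusted p = 0.776), then Il18r1 at -0.61 ± 0.28 and Il6ra, the IL-6 receptor chain, at 0.27 ± 0.13. Il18r1 was at the floor in every ischemic pool, at -69.4 to 104, so the size of that difference is set in part by the floor. Il6st, which encodes gp130, differed by 0.09 ± 0.21. Of 8 other Jak and Stat genes, 7 were tested and none passed (median -0.03), and Stat6, Stat5a and Jak3 had values of -0.85 ± 0.52, 0.40 ± 0.35 and -0.32 ± 0.68. The values of Stat6 and Jak3 include pools at the floor. Of 9 other feedback inhibitor genes, 8 were tested and none passed (median -0.07). Pias3, Ptpn1 and Pias2, which restrain STAT proteins or receptor signalling, had values of -0.34 ± 0.16, 0.25 ± 0.14 and -0.29 ± 0.21.

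Of 10 IL-1 and TNF signal transduction genes, 9 were tested and none passed (median 0.21). Tnfaip3, an inhibitor of NF-kB signalling, had a value of 0.92 ± 0.42, Traf2 0.30 ± 0.17 and Myd88, the adaptor of the IL-1 receptor, 0.48 ± 0.37 (log2, SE). For Tnfaip3, drug control pool 2, at 149, was the only non-ischemic pool above the floor. Ischemic pool 2 and treated ischemic pools 2 and 3 were at the floor as well, so the size of the Tnfaip3 difference is set in part by the floor. Of 16 genes listed as STAT3 targets, 15 were tested, 12 of them higher and 3 lower (median 0.21), and 1 passed. That gene was Junb, a subunit of the AP-1 transcription factor that is also an immediate early gene. Junb rose by 1.59 ± 0.21 (log2, SE, limma adjusted p = 0.00713). Its intensity was 6856, 5713 and 10464 in the ischemic pools, against 2699, 1933 and 2248 in the control pools. It was 6576, 5179 and 9303 in the treated ischemic pools, against 2456, 2070 and 2922 in the drug control pools. Myc and Cebpd, both transcription factor genes, had values of 1.02 ± 0.35 and 0.68 ± 0.24 and did not pass. The Myc value includes pools at the floor.

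**Figure D4:**
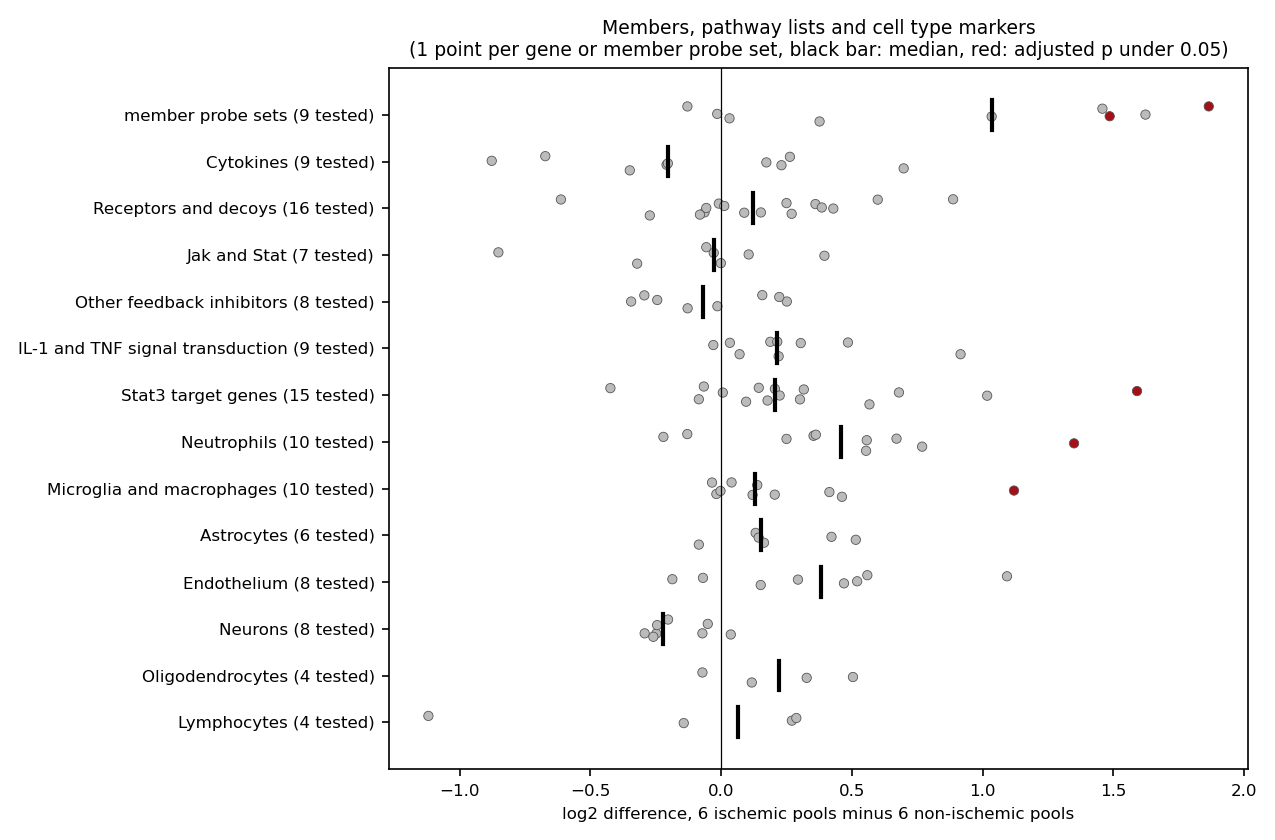
Log2 difference between the 6 ischemic and the 6 non-ischemic pools (horizontal axis) for the member probe sets and for the genes of 6 pathway lists and 7 lists of cell type markers (rows). Each point is 1 gene or member probe set, the black bar is the median of the row and red points have an adjusted p under 0.05; red points stand in the member, STAT3 target, neutrophil and microglia rows.

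Markers of other cells moved beside Socs3 and Il1a in single genes. Of 11 neutrophil markers on the array, 10 were tested and S100a8, a calcium-binding protein of neutrophils, rose over both arms by 1.35 ± 0.23 (log2, SE, limma adjusted p = 0.0331). It also rose without the drug, by 2.15 ± 0.32 (limma adjusted p = 0.0255), at 746, 794 and 492 in the ischemic pools, against 129, -13.1 and 234 in the control pools. With the drug it read 346, 473 and 558 in the treated ischemic pools, against 354, 317 and 262 in the drug control pools, at 0.54 ± 0.32 with overlap (limma adjusted p = 1). The summed level of the neutrophil list was 6686 to 12219 in the ischemic pools, against 3524 to 11936 in the control pools, and Ngp, a neutrophil granule gene, was below the floor on all 17 arrays. In the treated ischemic pools the sum was 6549.5 to 10053, against 5636 to 11627 in the drug control pools, and in the single brains it was 5417 to 7352.

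Of 14 microglia and macrophage markers, 10 were tested and Cd14, a co-receptor for bacterial lipopolysaccharide, rose over both arms by 1.12 ± 0.17 (log2, SE, limma adjusted p = 0.0185). The summed level of that list was 52527 to 57516 in the ischemic pools, against 41997 to 53337 in the control pools. It was 52945 to 61108 in the treated ischemic pools, against 42417 to 46725 in the drug control pools, without overlap. In the single brains it was 45694 to 58814, which overlapped the drug control pools. Cd14 is part of these sums, at 10532 to 12675 in the treated ischemic pools, against 4430 to 6277 in the drug control pools. The separation of the sums was not tested without Cd14. Of the 10 tested markers of this list, 7 were higher and 3 lower over both arms. None of the astrocyte (6 tested), endothelium (8), neuron (8), oligodendrocyte (4) or lymphocyte (4) markers passed over both arms, and Cd3e and Cd8a, which mark T cells, were below the floor on all 17 arrays. The part of these cells in the Socs3, Il1a and Il6 values was not tested.

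The probe sets whose profile over the 12 pools was nearest to Il6 and to Socs3 were taken from 9082 candidates by the root mean square distance between profiles centred on their own means. Nearest to Il6 were Lyz2, which encodes a lysozyme of myeloid cells, at a distance of 0.50 on the log2 scale, then Hba-a1, Ptgs2, Smarcd2 and Myc, the last at 0.56. The SD of Il6 itself over the pools was 1.12, and 7 of its 12 values were at the floor. Nearest to the first Socs3 probe set were Jun at 0.23, Cd14 at 0.29, Procr at 0.30, Gadd45g at 0.32 and Ier3 at 0.33. Nearest to the second were Gch1 at 0.41, Cd14 at 0.42, Jun at 0.42, Klf10 at 0.42 and Ier2 at 0.43. Cd14 and Jun were named for both Socs3 probe sets. The points share their arrays and scale factors, and the distances are a description with no test.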

How the data were processed

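RNA of 17 mouse brain samples was measured on an Affymetrix mouse array. The deposited values are linear intensities, 1 per probe set and array, and between 15.2% and 19.3% of them were below 0. Which software and scaling the authors used is not given in the sources used here. On 10 arrays the trimmed mean (2nd to 98th percentile) was already 2500, and each of the other 7 arrays was multiplied by 1 factor, from 11.9 to 19.3, to reach it. A floor of 109.5, the 25th percentile over the scaled pools, replaced lower values before log2 was taken. Tests covered probe sets exceeding the floor on 3 or more arrays, without the 66 control probe sets.

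Symbols came from the platform annotation: 10855 probe sets had 1 symbol, 396 several and 1237 none. Groups came from titles, and single brains were set apart by their descriptions. The tests used limma 3.58.1 (R 4.3.3), with 1 fit of the 12 pools (8 residual and 2.23 prior degrees of freedom) and separate fits for the single brains. Benjamini-Hochberg adjustment ran over all tested probe sets of a comparison, at a threshold of 0.05, two-sided. The 95% intervals come from the same fits. The p-values measure the spread between these arrays. The fit was tried on simulated data with independent noise and no pairing by pool number. Changes were added there only to probe sets well above the floor, so members near the floor, such as Il6 and Il1a, were not covered.

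Control, drug control and ischemic pools with the same number deviated together (correlations 0.332 to 0.571). Treated ischemic pools 1 and 2 correlated with the same numbers at 0.0593 to 0.401 and pool 3 at -0.335 to -0.113. The numbers were read as a pairing of the first 3 groups. The main fit used group only, with no block, so its p-values leave this pairing out. The fit that blocked on the pool number did so for all pools, the treated ischemic ones included. The named genes were all probe sets of the members, up to 3 genes of each pathway list with the smallest p over both arms, genes of the lists past the threshold, and the 5 nearest profiles. The members and lists were chosen with earlier results of these data known. Promoters are from RefSeq (GRCm38.p6), and all 10 named genes matched. The alternatives covered floor, filter, scaling, variance model, grouping, block and left-out arrays.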

Additional observations from a re-analysis of the deposited data

How the results depend on the processing

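The number of member probe sets called depended most on the scaling. With the values as deposited, which leave 7 arrays on another scale, all probe sets moved together: their median log2 difference was -2.48 for ischemia with the drug, -2.51 for the drug after ischemia, -1.20 over both arms, -3.76 for single brains against drug controls and -3.77 against ischemic pools. Under that setting 0 members were called for ischemia without the drug, 2 with the drug, 8 for the drug after ischemia, 0 over both arms, 8 for single brains against drug controls and 9 against ischemic pools. Signs turned under it for ischemia with the drug in Il1a (-0.10) and Socs3 (-1.40 on the first probe set and -0.91 on the second). They turned over both arms in Osmr (-0.94) and Socs1 (-0.24), and for single brains against drug controls in Il1a (-1.20), Osmr (-3.31) and Socs3 (-2.68 on the first probe set and -2.04 on the second). Of 20 member differences with an unadjusted p under 0.05, 341 of 350 values under the alternatives kept their sign, and these 9 did not. The other 52 differences were not followed one by one: 91 of their 888 values had the opposite sign and 21 passed the threshold, 20 of them with the values as deposited.

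For ischemia without the drug, quantile normalization called 0 members in place of 1, and leaving out 1 array called 0 each time. Over both arms, 2 were called, against 1 with no filter, 1 without the 2 arrays with unlike labels, 1 with the scale set as a block, and 1 to 3 with 1 array left out. Leaving out 1 array gave 2 to 3 for single brains against drug controls and 0 to 1 against ischemic pools. The cause was not tested. With the replicate number as a block, 3 members were called over both arms, adding the second Socs3 probe set, and no other call among the members changed. Over all tested probe sets, ischemia without the drug called 22, against 13 with quantile normalization, 33 with the floor at the 40th percentile, 35 with the replicate block, 11 without the 2 arrays with unlike labels and 1 to 19 with 1 array left out. Ischemia with the drug called 9, against 16, 3 and 1 with the 40th percentile floor, without those 2 arrays and with the scale set as a block, and 1 to 6 with 1 array left out. Over both arms 46 were called, against 55 with the floor at the 40th percentile and 65 with the replicate block. The count was 22 without those 2 arrays, 19 with the scale set as a block and 30 to 44 with 1 array left out. Single brains against drug controls called 645, against 401 and 935 with the 20th and 40th percentile floors. They called 912 with a robust fit and a variance trend, 940 with groups from the descriptions and 234 to 983 with 1 array left out. Against ischemic pools they called 182, against 78 and 393 with the 20th and 40th percentile floors, 308 with no filter, 345 with a robust fit and a variance trend, 514 with groups from the descriptions and 48 to 449 with 1 array left out. As deposited, these 5 comparisons called 0, 6935, 0, 8966 and 8966.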

Other observations

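Among the pathway and marker lists, 8 differences passed the threshold in the single brains, and the genes outside the rule for named genes were chosen after their values were seen. Junb rose in the single brains against the drug control pools by 2.07 ± 0.15 and Cd14 by 1.13 ± 0.16 (log2, SE, limma adjusted p = 0.000656 and 0.00975). Vim, an intermediate filament gene, fell against the drug control pools by 0.98 (limma adjusted p = 0.0451), at 549 to 915 in the 5 brains, against 1029 to 1787 in the 3 pools. Mpo, the neutrophil enzyme myeloperoxidase, was lower (limma adjusted p = 0.0251), at -32.8 to 236 in the brains, of which 4 of 5 were at the floor, against 315 to 419 in the pools. Cd79b, a B cell receptor chain, was lower (limma adjusted p = 0.0434), at -294 to 565 in the brains, of which 3 of 5 were at the floor, against 987 to 2447 in the pools. With brains at the floor, no size is given for these 2 differences. Treated ischemic pools 1, 2 and 3 read 1374, 1087 and 834 on Vim and 528, 410 and 37.4 on Mpo. On Cd79b they read 1014, 819 and -183.

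Against the ischemic pools, Il4ra, a receptor chain for IL-4, rose in the single brains by 1.48 ± 0.17 (log2, SE, limma adjusted p = 0.0104), at 1730 to 2210 in the brains, against 569 to 847 in the ischemic pools. Treated ischemic pools 1, 2 and 3 read 1228, 920 and 1989 on Il4ra, and the non-ischemic pools 663 to 1701.5. Tradd, an adaptor of the TNF receptor, read 848 to 1280 in the brains, against -7231 to -172 in the ischemic pools (limma adjusted p = 0.000386). Every ischemic pool was at the floor, without spread, and Tradd passed the filter only through the brains. No size is therefore given, and the p-value rests on the floor. Treated ischemic pools 2 and 3, deposited on another scale like the brains, read 2098 and 901, and pool 1 read 117. The pools spread widely on Tradd, from -5122 to 1771 in the drug control pools for example. Ltf, a neutrophil granule gene, fell by 1.10 (limma adjusted p = 0.0218), at 249.5 to 341 in the brains, against 578 to 728 in the ischemic pools. Treated ischemic pools 1, 2 and 3 read 902, 595 and 318 on Ltf. The single brains and the pools also differ in the number of brains and in the deposited scale, which cannot be told apart from treatment in these values.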
